A study of Mus musculus with 15 samples.

Results

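The genes described here are 46 genes of the G2/M transition and mitosis, a fixed list of cyclins, mitotic kinases, spindle checkpoint and kinetochore proteins, spindle motors, cytokinesis proteins and condensins, followed in mouse spleen after removal of 70% of the liver. A gene was taken as measured where exactly 1 symbol on the array platform matched it. This held for 44 of the 46, each with 1 feature, among 22206 features tested, of which 19572 carry 1 symbol. Ccnb1, which encodes cyclin B1, and Foxm1, a transcription factor of mitotic genes, had no such feature and were not analysed here. The spleens came from male C57bl/10 mice, either intact or 1, 3 or 7 days after the resection, with 6 intact mice and 3 mice for each day. Total RNA from spleen was hybridised to 1 Clariom S array per mouse, so 15 arrays in all. The labels do not say what part of the spleen was taken, and they describe the arrays of a group as biological replicates. Sham-operated mice were not hybridised. Any effect of anaesthesia and surgery therefore cannot be told apart from that of the resection. Days 1 and 7 were compared with intact replicates 1 to 3 and day 3 with intact replicates 4 to 6. Days 1 and 7 thus share their control arrays.

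As background, entry into mitosis is driven by Cdk1 bound to cyclins A and B. Aurora and Polo kinases and the kinesin motors then build the spindle, while a checkpoint at the kinetochores holds back the anaphase promoting complex until all chromosomes are attached. Many of these genes are transcribed together late in the cell cycle through repressor and activator complexes that bind 2 short promoter elements, the CHR and the CCAAT box. In the adult mouse spleen the cells that divide include erythroid and myeloid precursors of the red pulp and activated lymphocytes of the white pulp.

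The deposited values are log2 expression levels normalised together by RMA, with array medians from 4.74 to 4.89 and Pearson's r across features of at least 0.944 between any 2 arrays. All 44 genes were above the array's own median on each of the 15 arrays. The B cell receptor gene Cd79a, the T cell receptor gene Cd3e and the red pulp macrophage gene Spic were above the array median on all 15 arrays. Not every marker of spleen cells was. The T cell gene Zap70 was above it on 10 arrays and the spleen stroma gene Nkx2-5 on 0. Intact replicates 1 and 2 stood apart through pancreatic acinar transcripts. The mean log2 level of 18 such genes was 14.11 and 11.72 there and 3.47 to 7.49 on the other 13 arrays. Both arrays belong to the control set of days 1 and 7, and day 1 and day 7 values without them are given below. The number of arrays limits the precision. Differences and standard errors come from 1 limma fit over all 15 arrays in 5 groups, and the threshold for a call was an adjusted p (Benjamini-Hochberg, over all features tested) below 0.05.

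The 44 genes moved as a block from array to array. To show this, the mean of each gene over the 15 arrays was subtracted and the median of the 44 deviations was taken on each array. It was 0.42, 0.64 and 0.18 in intact replicates 1 to 3 and -0.43, 0.36 and -0.82 in intact replicates 4 to 6. After resection it was -0.80, -0.42 and -0.10 on day 1, -1.09, -1.56 and 1.36 on day 3, and 0.97, 0.46 and 0.99 on day 7. The 3 day 1 spleens lay below intact spleens 1 to 3 and the 3 day 7 spleens above day 1, without overlap, whereas the day 3 spleens held both ends of the series. Replicate 3 of day 3 was the highest of the 15 arrays for 28 of the 44 genes and replicate 2 of day 3 the lowest for 29.

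**Figure D1:**
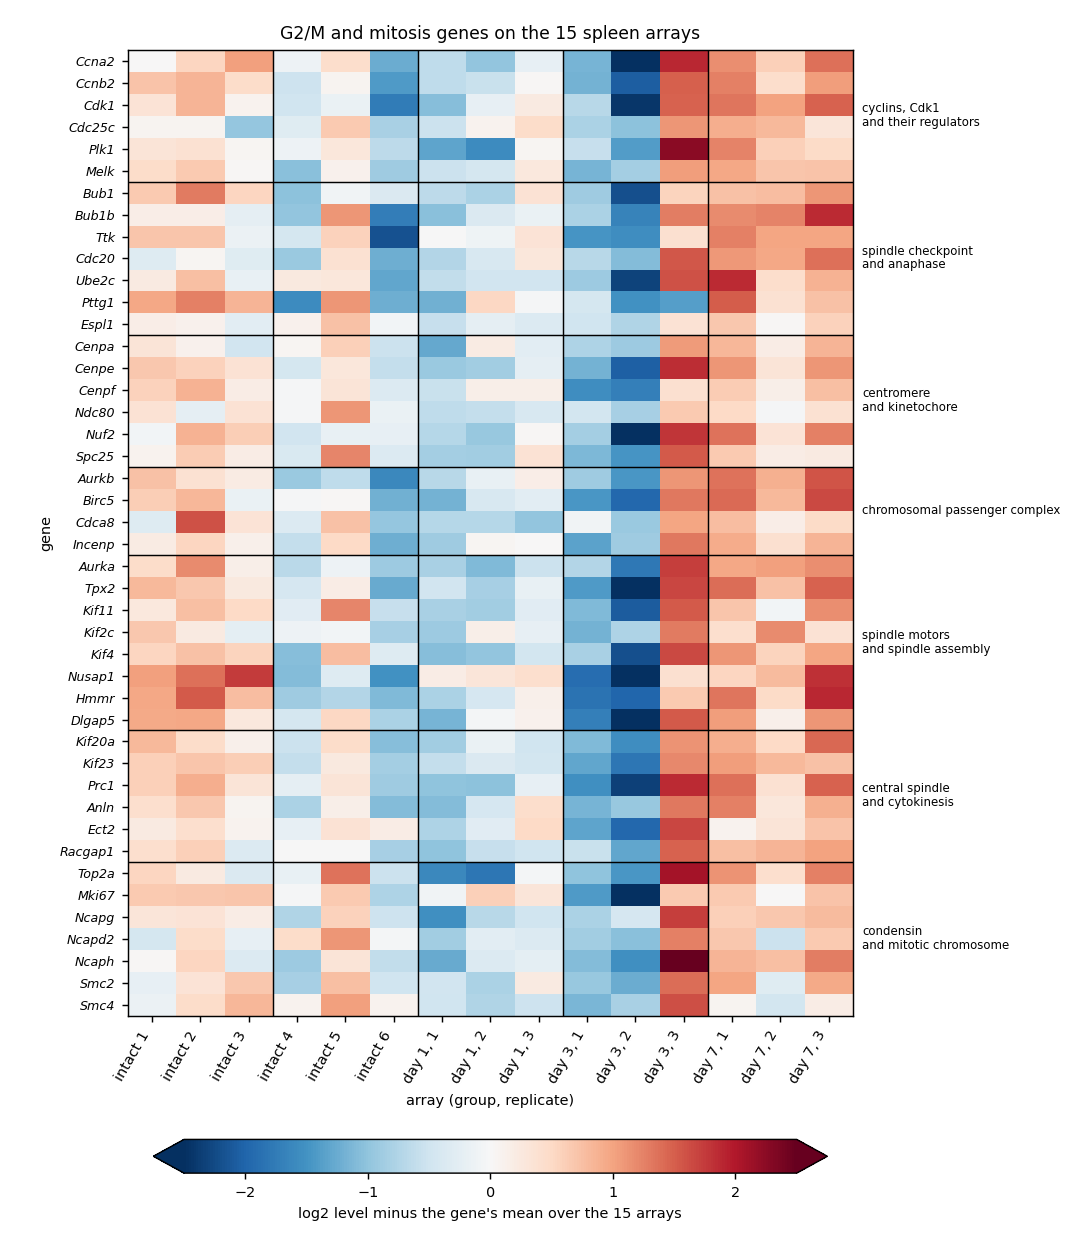
Log2 level of the 44 measured genes (rows, grouped by role) on the 15 arrays (columns), each as the deviation from the gene's own mean over all arrays, with blue below and red above that mean. Day 3 replicates 1 and 2 are blue and replicate 3 red through nearly all rows, with medians of -1.09, -1.56 and 1.36.

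Since the genes moved together, their promoters were read for the 2 elements. RefSeq promoter windows of GRCm38.p6, from 250 bases before to 50 after the annotated start, were given for 36 of the 44 measured genes, and the first window of a gene was used. For 18 of the 36 its start is the 5′ end of the gene record, and for the other 18 it is the start of another transcript further into the gene. The letters TTTGAA, a common form of the CHR, were found on either strand in 28 of the 36 windows (77.8%), against 18.1% of the windows of 27025 genes. CCAAT was found on either strand in 27 of the 36 (75%), against 37.9%, and both in 25 (69.4%), against 7.12%. TTTGAA within 60 bases before or 50 after the start was present in 25 of the 36 windows (69.4%), against 5.46%, and a TTTGAA and a CCAAT match shared bases in 1 of the 36. A match of letters is a description of the window and does not show binding. The 120 bases just before the start are printed for 4 genes from several roles where TTTGAA fell close before a start that is the 5′ end of the gene record, in gene orientation from 5′ to 3′, with capitals for TTTGAA and CCAAT or their reverse complements TTCAAA and ATTGG.
Cdk1 (chr10:69352913-69353032, minus strand): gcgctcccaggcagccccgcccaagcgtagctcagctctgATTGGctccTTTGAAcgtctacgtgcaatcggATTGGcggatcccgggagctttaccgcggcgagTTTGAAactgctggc
Cdc20 (chr4:118437344-118437463, minus strand): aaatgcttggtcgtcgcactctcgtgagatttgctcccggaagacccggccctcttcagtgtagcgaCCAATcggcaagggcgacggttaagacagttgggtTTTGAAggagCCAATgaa
Ube2c (chr2:164769809-164769928, plus strand): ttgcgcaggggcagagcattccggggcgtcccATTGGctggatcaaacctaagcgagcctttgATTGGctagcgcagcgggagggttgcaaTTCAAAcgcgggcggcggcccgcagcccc
Kif11 (chr19:37376262-37376381, plus strand): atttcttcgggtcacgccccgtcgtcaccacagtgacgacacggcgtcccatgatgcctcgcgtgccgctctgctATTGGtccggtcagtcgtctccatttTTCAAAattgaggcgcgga
In Cdk1 the TTTGAA letters occur 2 times, each after an ATTGG, and the first of the matched bases lie 71 and 15 bases before the start. Cdc20 and Ube2c also hold 2 CCAAT or ATTGG matches each in this stretch, and Kif11 holds 1.

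On day 1, 43 of the 44 genes were lower than in intact spleens 1 to 3, with a median log2 difference of -0.94, that is, 1.92-fold lower. Over all 22206 features the median difference was 0.00, and 49.7% of features were lower. The genes furthest down were the spindle genes Hmmr, Kif4 and Aurka, at 2.74-fold, 2.73-fold and 2.66-fold lower. Cdc25c, the phosphatase that activates Cdk1, was the exception, with a difference of 0.27 ± 0.52 (SE). By limma 0 of the 44 genes passed, as did 0% of all features, and the smallest adjusted p among them was 0.631. At an unadjusted p under 0.05, 5 genes were lower (2.63% of all features were), namely Hmmr, Cdca8, Aurka, Bub1 and Ncapg, each at least 2-fold. In bulk tissue, fewer cells of a dividing type and less RNA per cell cannot be told apart.

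Of the 44 genes, 26 had all 3 day 1 arrays below all 3 arrays of intact spleens 1 to 3, against 7.14% of all features. At least 2-fold lower were 20 genes, against 1.29%. The 3 spleens differed in extent. Replicates 1, 2 and 3 of day 1 had 42, 38 and 27 genes below every one of those intact arrays. Their median deviations from the intact mean were -1.21, -0.81 and -0.46. For single arrays the share of all features was not counted, so these counts are not read further. The result moved with the choice of control arrays. The median was -0.64, with 40 genes lower, without the acinar-rich intact replicates 1 and 2 together, -0.53 against all 6 intact spleens, and -0.18, with 27 genes lower, against intact spleens 4 to 6. Leaving out intact replicate 2 alone left 0 genes lower at an unadjusted p under 0.05 (2.06% of all features). Leaving out day 3 replicate 3, which widens the shared estimate of the spread, raised the count from 5 to 25 (3.5% of all features), with 0 genes called in each case.

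On day 7, 38 of the 44 genes were higher than in intact spleens 1 to 3, with a median log2 difference of 0.42, or 1.34-fold, against 0.00 over all features, of which 49.7% were higher. Bub1b, a core protein of the spindle checkpoint, and Cdc20, the activator of the anaphase promoting complex that the checkpoint restrains, had the largest differences, 2.62-fold and 2.52-fold. The 6 genes that were lower were Smc4, Nusap1, Mki67, Pttg1, Cdca8 and Cenpf, from -0.45 to -0.02. By limma 0 of the 44 passed (0% of all features), the smallest adjusted p was 0.419, and 1 gene, Cdc20, had an unadjusted p under 0.05 (5.91% of all features were higher at that level). All 3 day 7 arrays lay above all 3 intact arrays for 12 genes, against 7.93% of all features.

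Replicates 1 and 3 of day 7 had 33 and 36 genes above every array of intact spleens 1 to 3. Replicate 2 had 13, with 12 below. The share of all features was not counted for single arrays here either. The median was 0.55 without the acinar-rich intact replicates 1 and 2, 0.78 against all 6 intact spleens and 1.21 against intact spleens 4 to 6. In the last setting limma called 2 of the 44 genes higher, Aurkb and Hmmr, with adjusted p values of 0.0155 and 0.0368, while 3.26% of all features were called higher, a share near that of the genes.

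Between day 1 and day 7 every one of the 44 genes was higher on day 7, with a median log2 difference of 1.29, or 2.45-fold, whereas 51.2% of all features were higher. The differences ran from 0.19 for Mki67 to 2.09, or 4.26-fold, for Top2a. This comparison uses no intact array as a control. The arrays of the days did not overlap for 35 of the 44 genes (8.05% of all features), 31 were at least 2-fold higher (3.21%), and 24 had an unadjusted p under 0.05 (5.58%). By limma over the 15 arrays 0 genes passed, with a smallest adjusted p of 0.214 for Ncapg, while 13 features passed among all 22206 (0.0585%).

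The call depended on the day 3 arrays, which enter the shared spread although they are not compared here. Without day 3 replicate 3, 12 of the 44 genes passed (0.441% of all features were called higher) with adjusted p values from 0.0218 for Aurka to 0.0478 for Plk1. They were Aurka, Aurkb, Birc5, Cenpe, Hmmr, Kif23, Ncapg, Ncaph, Plk1, Prc1, Racgap1 and Tpx2. Without all 3 day 3 arrays, a setting chosen after seeing the data, 13 passed (0.374% of all features), with Kif4 and Nuf2 in place of Ncaph. With the day 1 and day 7 arrays alone 0 passed and the smallest adjusted p was 0.0739. The log2 differences themselves were the same in these fits.

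**Figure D2:**
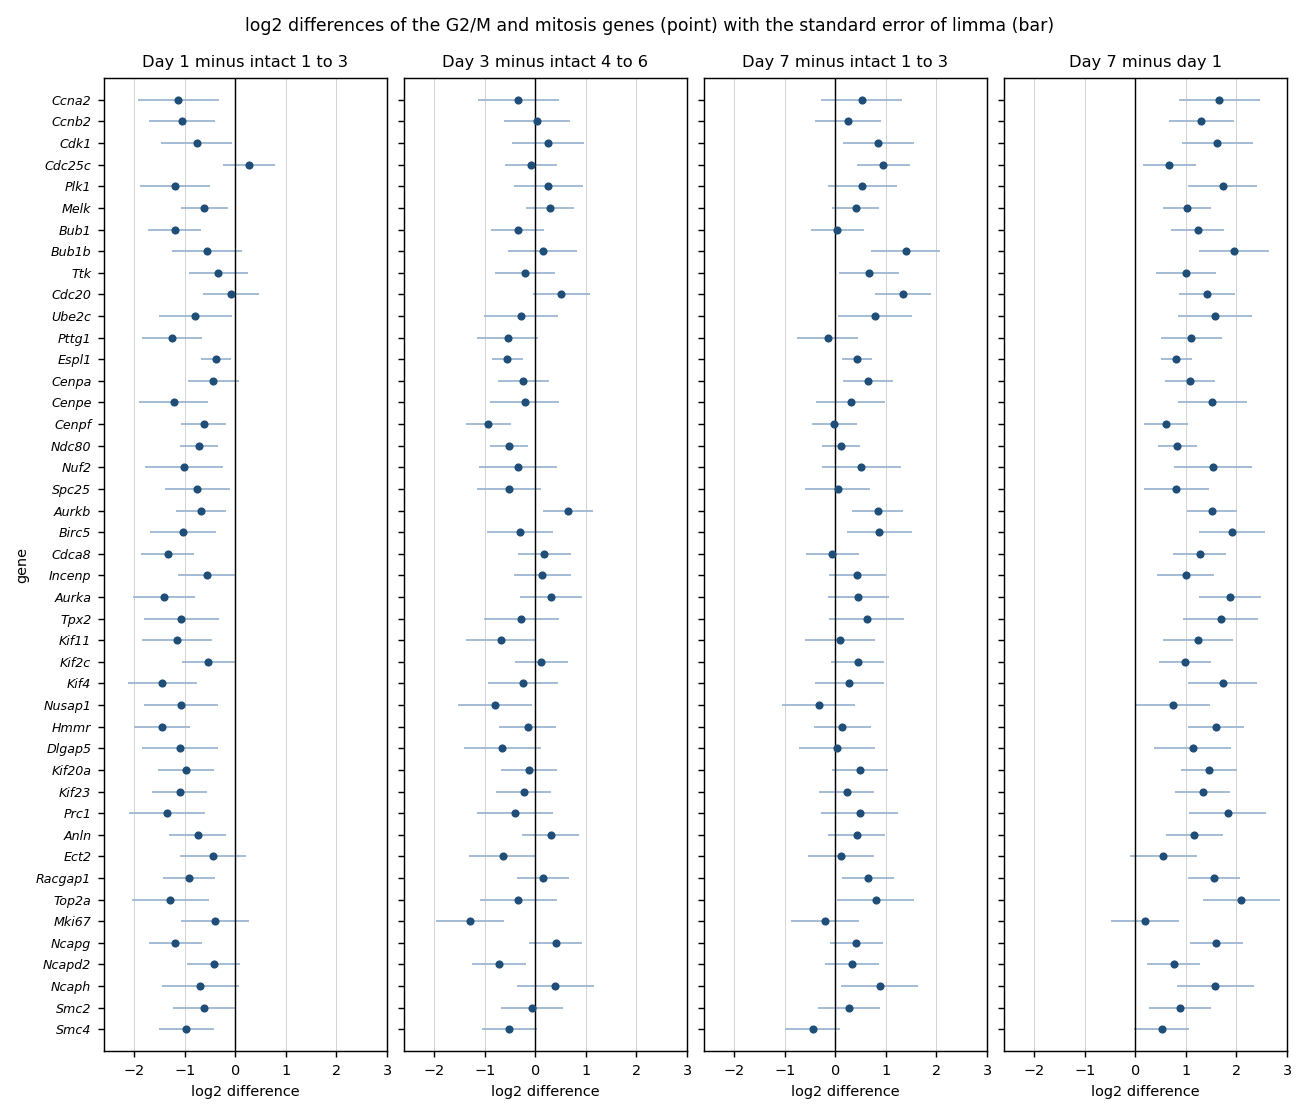
Log2 differences (points) with the standard error of limma (bars) for the 44 genes, ordered by role, in 4 comparisons. On day 1, 43 points lie below 0, on day 7 38 lie above 0 against the same intact spleens, all 44 lie above 0 for day 7 minus day 1, and the day 3 points lie on both sides.

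On day 3 the genes had no common direction. Against intact spleens 4 to 6, 15 were higher (49.5% of all features were) and 29 lower (50.5%), with a median log2 difference of -0.23. By limma 0 passed (0.00901% of all features, 2 features, did), the smallest adjusted p was 0.568, 0 genes had an unadjusted p under 0.05 (5.76% of all features were higher and 3.28% lower at that level), and 0 had arrays that did not overlap (6.78% higher and 5.38% lower). The 3 spleens pulled apart. Replicates 1 and 2 had median deviations of -0.76 and -1.23 from the intact mean, with 28 and 33 genes below every array of intact spleens 4 to 6. Replicate 3 had a median deviation of 1.68, or 3.21-fold higher, with 39 genes above every one of them. These counts for single arrays have no share of all features beside them, since it was not counted.

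The spread of the genes on day 3 was far above that of other features. The median SD over the 3 arrays was 1.51 for the 44 genes and 0.343 for all features, and 41 of the 44 lay above the 90th percentile of all features by SD. In intact spleens 4 to 6 the median SD of the genes was 0.679, with 25 above that percentile, in day 1 0.452, in day 7 0.379 and in intact spleens 1 to 3 0.342. Single arrays set the sign of the day 3 median. It was -0.98, with 44 of 44 genes lower, without day 3 replicate 3, and 0.10, 0.41 and 0.16 without day 3 replicate 1, day 3 replicate 2 and intact replicate 5. Without day 3 replicate 3 the kinetochore gene Cenpf passed limma, at -1.61 on the log2 scale (adjusted p = 0.0407), 1 of 44 genes beside 0.027% of all features called lower. The day 3 median was -0.52 against all 6 intact spleens, with 40 genes lower, and -0.82 against intact spleens 1 to 3, with 42 lower.

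Set against their own controls, the days were also compared with each other. The difference of day 3 from its controls exceeded that of day 1 for 38 genes (49.9% of all features), with a median of 0.72, and that of day 7 exceeded that of day 3 for 43 genes (49.4%), with a median of 0.59. By limma 0 genes passed in either test (0% of all features in each), with smallest adjusted p values of 0.940 and 0.836. At an unadjusted p under 0.05 stood 1 gene in each, Ncapg in the first and Espl1 in the second, against 2.77% of all features in both. The signs again followed single day 3 arrays: the first median was -0.21 without day 3 replicate 3, and the second was -0.05 without day 3 replicate 2. The second was 0.22 without intact replicate 5 and 1.51 without day 3 replicate 3.

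The intact sets also differed from each other. Intact spleens 4 to 6 were lower than intact spleens 1 to 3 for 37 of the 44 genes (51.8% of all features), with a median log2 difference of -0.73. The largest differences were those of Nusap1, a microtubule-bundling protein of the spindle, at 5.12-fold, and Hmmr, at 3.98-fold. By limma 0 of the 44 passed (0.59% of all features did), with a smallest adjusted p of 0.151, and 11 genes were lower without overlap, against 9.31% of all features. Without day 3 replicate 3 Hmmr, Nusap1 and Aurkb passed, with adjusted p values of 0.0116, 0.0254 and 0.0374 (0.428% of all features were called lower). The same 3 genes passed without the 3 day 3 arrays, where 83 of the 22206 features were called lower. In a limma fit of the intact arrays alone Hmmr and Nusap1 passed, with adjusted p values of 0.0111 and 0.016. There 87 of the 22206 features were called lower. Without intact replicate 5 Pttg1 passed, with 0.0432 (0.198% of all features). The array labels name no batch for the 2 sets, and what separates them was not tested.

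Among the cyclins, Cdk1 and their regulators, 6 genes were measured, and on day 1 5 of them were lower, with a median log2 difference of -0.91. Ccna2, which encodes cyclin A2 of S phase and G2, had log2 levels of 12.69, 13.20 and 13.69 in intact spleens 1 to 3 and 12.03, 11.68 and 12.47 on day 1. It had 13.83, 13.27 and 14.06 on day 7, and on day 3 11.52, 9.998 and 14.57 beside 12.54, 13.12 and 11.43 in intact spleens 4 to 6. All day 1 arrays were below, and the day 7 arrays overlapped, intact spleens 1 to 3, while 1 day 3 array was above and 1 below all other arrays. Its difference was -1.13 ± 0.80 (SE, adjusted p = 0.803 from limma) on day 1 and 1.66 ± 0.80 (adjusted p = 0.412) between days 1 and 7.

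Ccnb2, a B-type cyclin, stood at 13.31, 13.46 and 13.06 in intact spleens 1 to 3, at 11.98, 12.05 and 12.64 on day 1 and at 13.88, 13.05 and 13.66 on day 7. Day 1 did not overlap either of them, and day 7 overlapped the intact arrays. In intact spleens 4 to 6 the levels were 12.09, 12.67 and 11.20, below intact spleens 1 to 3 and overlapping day 1, and on day 3 11.43, 10.54 and 14.10. Cdk1, the kinase of mitotic entry, and Plk1, a Polo kinase, differed between days 1 and 7 by 3.08-fold and 3.30-fold. Melk, a kinase of dividing progenitor cells, differed by 2.03-fold. Cdc25c was higher on day 7 than in intact spleens 1 to 3 without overlap, at 6.97, 6.87 and 6.36 against 6.14, 6.13 and 5.09, a difference of 0.95 ± 0.52 (SE, adjusted p = 0.566).

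The 7 genes of the spindle checkpoint and of anaphase onset gave the largest day 7 differences, with a median of 0.67 over intact spleens 1 to 3. Bub1b had levels of 12.14, 12.21 and 12.83 on day 7, above every array of intact spleens 1 to 3 (11.13, 11.14 and 10.74) and of day 1 (9.92, 10.60 and 10.81). It differed by 1.39 ± 0.69 (SE, adjusted p = 0.506 from limma) from intact spleens. Cdc20 had 8.73, 8.61 and 9.01 on day 7 and 7.32, 7.69 and 7.33 in intact spleens 1 to 3, a difference of 1.34 ± 0.56 (SE, adjusted p = 0.419). Its day 1 levels, 6.91, 7.24 and 7.93, covered the intact range, and the difference on day 1 was -0.09 ± 0.56.

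Bub1, the kinase that recruits checkpoint proteins to kinetochores, was low on day 1 and close to intact on day 7. It had 9.31, 9.94 and 9.18 in intact spleens 1 to 3, 7.99, 7.85 and 9.003 on day 1 and 9.39, 9.41 and 9.75 on day 7. Day 1 lay below intact spleens 1 to 3 without overlap, by 1.20 on the log2 scale or 2.29-fold, and day 7 overlapped them, with a difference of 0.04 ± 0.52 (SE). Ttk, a checkpoint kinase, and Ube2c, the ubiquitin-conjugating enzyme of the anaphase promoting complex, were 1.59-fold and 1.73-fold higher on day 7. Pttg1, or securin, and Espl1, or separase, are the inhibitor and the protease of sister chromatid separation. Pttg1 was 2.39-fold lower on day 1 and stood at -0.15 on day 7. It was also the gene with the smallest SD on day 3, 0.582, since replicate 3 was low too, with levels of 9.18, 8.11 and 8.26. Espl1 had small differences with small errors, -0.38 ± 0.30 on day 1, -0.55 ± 0.30 on day 3 and 0.43 ± 0.30 on day 7 (SE).

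The 6 centromere and kinetochore genes were all lower on day 1, with a median of -0.74, and all lower on day 3, with a median of -0.43. Cenpf, which encodes a large protein of the outer kinetochore, led day 3. Its levels were 5.46, 5.30 and 7.42 on day 3 and 6.98, 7.32 and 6.67 in intact spleens 4 to 6, so that the day 3 mean was lower by 0.93 ± 0.44 (SE, limma adjusted p = 0.568). Replicates 1 and 2 were below every array of intact spleens 4 to 6 and replicate 3 was above them. Cenpe, a kinetochore motor, was 2.33-fold lower on day 1 and 2.88-fold higher on day 7 than on day 1. Cenpa, the centromere histone, differed by -0.44 and, between days 1 and 7, by 1.08. The Ndc80 complex genes Ndc80, Nuf2 and Spc25, whose products bind microtubules, differed by -0.72, -1.02 and -0.75 on day 1 and were 1.78-fold, 2.90-fold and 1.75-fold higher on day 7 than on day 1.

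The 4 subunits of the chromosomal passenger complex correct wrong attachments and later mark the cleavage site. On day 1 all 4 genes were lower without overlap (7.14% of all features were), with a median of -0.86. Cdca8, or borealin, had 7.03, 8.95 and 7.71 in intact spleens 1 to 3 and 6.65, 6.65 and 6.38 on day 1. Day 1 was lower by 1.34 ± 0.52 on the log2 scale (SE, adjusted p = 0.649 from limma) and did not overlap, but intact replicate 2, 1 of the acinar-rich spleens, was well above the others, and without it the difference was -0.81. Aurkb, the kinase of the complex, had 10.39, 10.04 and 9.86 in intact spleens 1 to 3, 8.96, 9.47 and 9.83 on day 1 and 11.02, 10.55 and 11.23 on day 7. The 3 groups did not overlap, with day 1 lowest and day 7 highest, and days 1 and 7 differed by 2.85-fold (1.51 ± 0.50, SE, adjusted p = 0.221). In intact spleens 4 to 6 Aurkb had 8.73, 9.02 and 8.05, below intact spleens 1 to 3 and overlapping day 1. Birc5, or survivin, had 9.69, 10.47 and 10.61 on day 1 and 12.28, 11.69 and 12.52 on day 7, a difference of 3.75-fold (1.91 ± 0.65, SE, adjusted p = 0.233). Incenp, the scaffold, differed by 1.00 between days 1 and 7.

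The 8 genes of spindle motors and spindle assembly were the furthest down on day 1, with a median log2 difference of -1.13. All 8 were lower, 7 of them without overlap (7.14% of all features were lower without overlap). Aurka, the kinase of centrosome maturation, had 8.83, 9.55 and 8.5 in intact spleens 1 to 3, 7.55, 7.26 and 7.83 on day 1 and 9.33, 9.39 and 9.53 on day 7. Day 1 lay below both other groups, and day 7 had the smallest SD of the 44 genes in that group, 0.102. Days 1 and 7 differed by 3.65-fold (1.87 ± 0.61, SE, adjusted p = 0.216 from limma). On day 3 Aurka had 7.64, 6.57 and 10.09, that is, the lowest and the highest of the 15 arrays, beside 7.69, 8.23 and 7.46 in intact spleens 4 to 6.

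Hmmr, a hyaluronan receptor that also binds spindle microtubules, had 9.70, 10.26 and 9.51 in intact spleens 1 to 3, 7.94, 8.30 and 8.86 on day 1 and 10.06, 9.20 and 10.62 on day 7. Its day 1 difference was -1.45 ± 0.56 (SE, adjusted p = 0.631 from limma). In intact spleens 4 to 6 it had 7.85, 8.002 and 7.63, and against these the day 1 difference was 0.54, so its direction on day 1 depended on the intact set. Kif4, a chromosome-bound kinesin, had 10.26, 10.47 and 10.29 in intact spleens 1 to 3 and 8.67, 8.74 and 9.27 on day 1, a gap without overlap of 2.73-fold. Tpx2, the activator of Aurora A, was 2.10-fold lower and Kif11, the motor that separates the spindle poles, 2.23-fold lower. Dlgap5 and Nusap1, both microtubule-binding spindle proteins, were 2.14-fold and 2.11-fold lower, and Kif2c, a microtubule depolymerase, 1.45-fold lower with overlap.

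**Figure D3:**
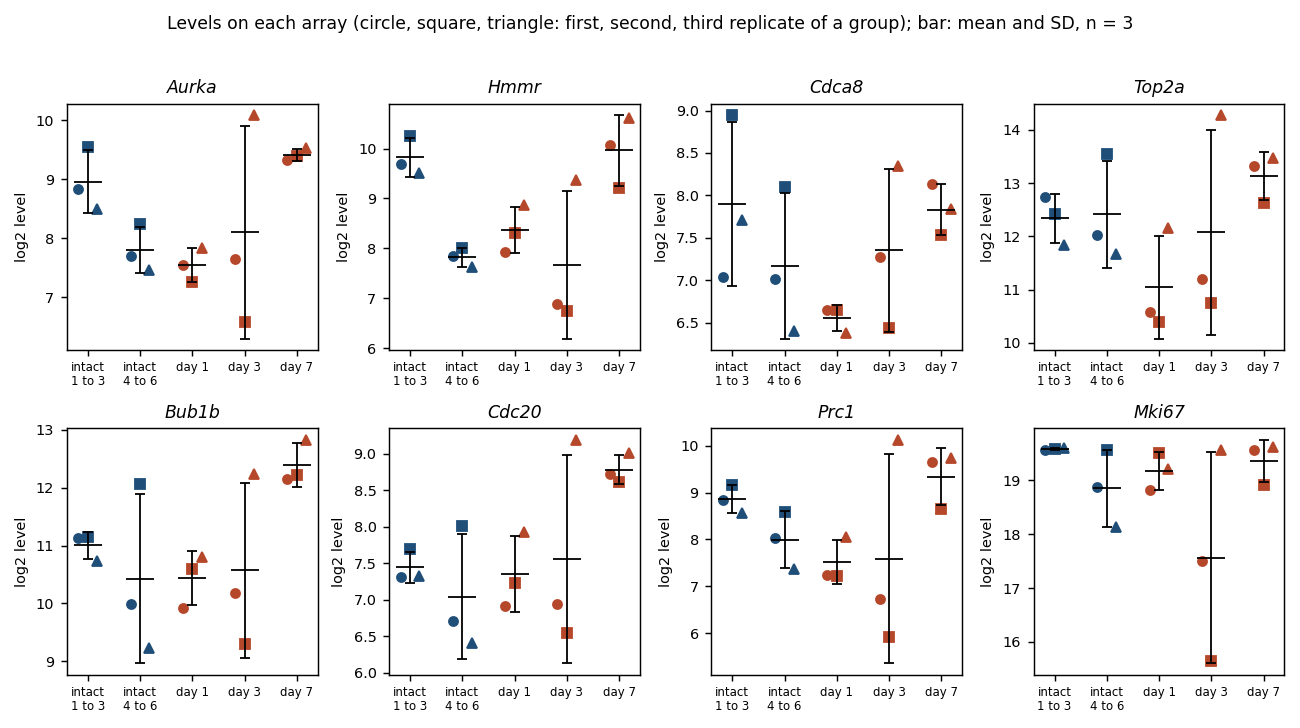
Log2 level of 8 genes on each array, by group, with the mean and SD (n = 3); blue marks intact and red resected mice, and the marker shape the replicate within its group. Aurka and Prc1 lie lower on day 1 than on day 7 without overlap, Cdc20 and Bub1b lie above intact spleens 1 to 3 on day 7, and the Mki67 axis ends near the upper end of the scale.

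The 6 genes of the central spindle and cytokinesis were all lower on day 1 (median -0.94) and all higher on day 7 than in intact spleens 1 to 3 (median 0.45). Prc1, which bundles the microtubules of the central spindle, had 8.85, 9.16 and 8.57 in intact spleens 1 to 3, 7.25, 7.23 and 8.05 on day 1 and 9.64, 8.64 and 9.74 on day 7. Day 1 was lowest without overlap, and its difference from day 7 was 3.56-fold. On day 3 its levels were 6.73, 5.92 and 10.13, a range of 4.21 within 1 group. Racgap1, a subunit of centralspindlin, had 7.74, 8.16 and 8.24 on day 1 and 9.49, 9.58 and 9.73 on day 7, a difference of 2.93-fold (1.55 ± 0.52, SE, adjusted p = 0.224 from limma). Kif23, its motor partner, differed by 2.51-fold and Kif20a, a kinesin of the cleavage furrow, by 2.74-fold, both without overlap. Anln, or anillin, differed by 2.25-fold with overlap, and Ect2, the exchange factor that activates RhoA, by 0.56.

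The 7 genes of condensin and of the mitotic chromosome included both extremes of the day 1 to day 7 comparison. Top2a, the topoisomerase that untangles sister chromatids, had 10.59, 10.40 and 12.16 on day 1 and 13.32, 12.63 and 13.47 on day 7, which was higher by 2.09 ± 0.76 (SE, adjusted p = 0.266 from limma). The days did not overlap, but day 1 replicate 3 was within the range of intact spleens 1 to 3, at 12.75, 12.43 and 11.84. Ncapg, a condensin I subunit, had 10.25, 10.27 and 10.14 in intact spleens 1 to 3, 8.41, 9.25 and 9.44 on day 1 and 10.53, 10.62 and 10.74 on day 7. The 3 groups did not overlap, with day 1 lowest and day 7 highest.

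Mki67, which encodes the proliferation antigen Ki-67 of the mitotic chromosome surface, had the smallest difference between days 1 and 7. Its levels were 19.56, 19.58 and 19.60 in intact spleens 1 to 3, 18.82, 19.50 and 19.21 on day 1 and 19.57, 18.92 and 19.62 on day 7. Of the 15 arrays, 8 lay within 0.5 of the highest value in the table, 19.93, so its upward differences are bounded by the scale. Below that end it did vary: on day 3 it had 17.50, 15.63 and 19.56, beside 18.87, 19.57 and 18.13 in intact spleens 4 to 6, a difference of -1.29 ± 0.67 (SE, adjusted p = 0.622). Smc4, the ATPase core subunit of condensin, was 1.96-fold lower on day 1 and, unlike most of the genes, did not lie above intact spleens on day 7, at -0.45 ± 0.54. Its partner Smc2 differed by -0.62 on day 1 and 0.27 on day 7. Ncaph, another condensin I subunit, was 2.99-fold higher on day 7 than on day 1, and Ncapd2 differed by 0.76.

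Other genes of the same pathways, in lists of which none is a member, were counted for comparison, each in the same fit. Of 73 further mitosis genes, 65 were lower on day 1 (median log2 difference -0.55). On day 7, 65 were higher than in intact spleens 1 to 3 (0.43) and 73 of 73 higher than on day 1 (0.95). On day 3, 43 were higher than in intact spleens 4 to 6 (49.5% of all features were) and 30 lower, with a median of 0.09. By limma 0 passed in these comparisons, and the smallest adjusted p was 0.0826, for Cdca5, or sororin, a regulator of cohesin, at 2.12 ± 0.48 (SE) between days 1 and 7. Of 36 genes that act in G1/S and in replication, 35 were lower on day 1, with a median of -0.94, and 35 were higher on day 7 than on day 1, with a median of 1.54. The polymerase gene Pold1 had the smallest adjusted p, 0.0647, at 1.10 ± 0.22 (SE). Of the same 36 genes, 27 were higher and 9 lower on day 3 than in intact spleens 4 to 6, with a median of 0.14.

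For 14 core genes of the anaphase promoting complex, which cells also use outside mitosis, the medians were 0.02 on day 1, 0.22 on day 7 and 0.27 between days 1 and 7. On day 3, 12 of the 14 were higher (49.5% of all features were), with a median of 0.51. Without overlap, 5 lay above intact spleens 4 to 6 (6.78% of all features). For 10 cohesin genes the medians were -0.24 on day 1, 0.08 on day 7, -0.20 on day 3 and 0.46 between days 1 and 7. Of 26 cell cycle inhibitors and p53 targets, 16 were higher on day 1, with a median of 0.02. Among them the antiproliferative gene Btg1 and the stress gene Sesn1 had log2 differences of 1.26 ± 0.49 and 1.69 ± 0.47 (SE) on day 1 and -2.46 and -2.14 between days 1 and 7. The adjusted p of the latter was 0.0629 for Btg1 and 0.0802 for Sesn1. Over these lists 0 genes passed limma in the comparisons of days 1 and 7 with intact spleens and with each other.

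Markers of cell types varied along the same arrays. For 15 erythroid genes the median deviation was 0.77, 1.11 and 0.44 in intact spleens 1 to 3, -0.10, 0.45 and -0.59 in intact spleens 4 to 6, and -0.47, -0.50 and -0.17 on day 1. On day 3 it was -0.95, -3.77 and 1.47 and on day 7 1.49, -0.79 and 1.31. The 3 highest arrays of the erythroid genes were also the 3 highest of the mitosis genes, and the lowest of both was day 3 replicate 2. Day 7 replicate 2 was low in erythroid genes and above the mean over arrays in 39 of the mitosis genes. The mean log2 level of the erythroid list was 12.74 to 13.34 in intact spleens 1 to 3, 11.69 to 12.85 in intact spleens 4 to 6, 11.73 to 12.20 on day 1, 8.92 to 13.64 on day 3 and 11.61 to 13.54 on day 7. On day 1, 14 of the 15 were lower, with a median difference of -1.11. On day 7, 11 were lower than in intact spleens 1 to 3 and 4 higher, with a median of -0.20. There 38 of the 44 mitosis genes were higher. All 15, among them the lineage-defining Klf1, Gata1 and Alas2, were above the array median on every array.

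**Figure D4:**
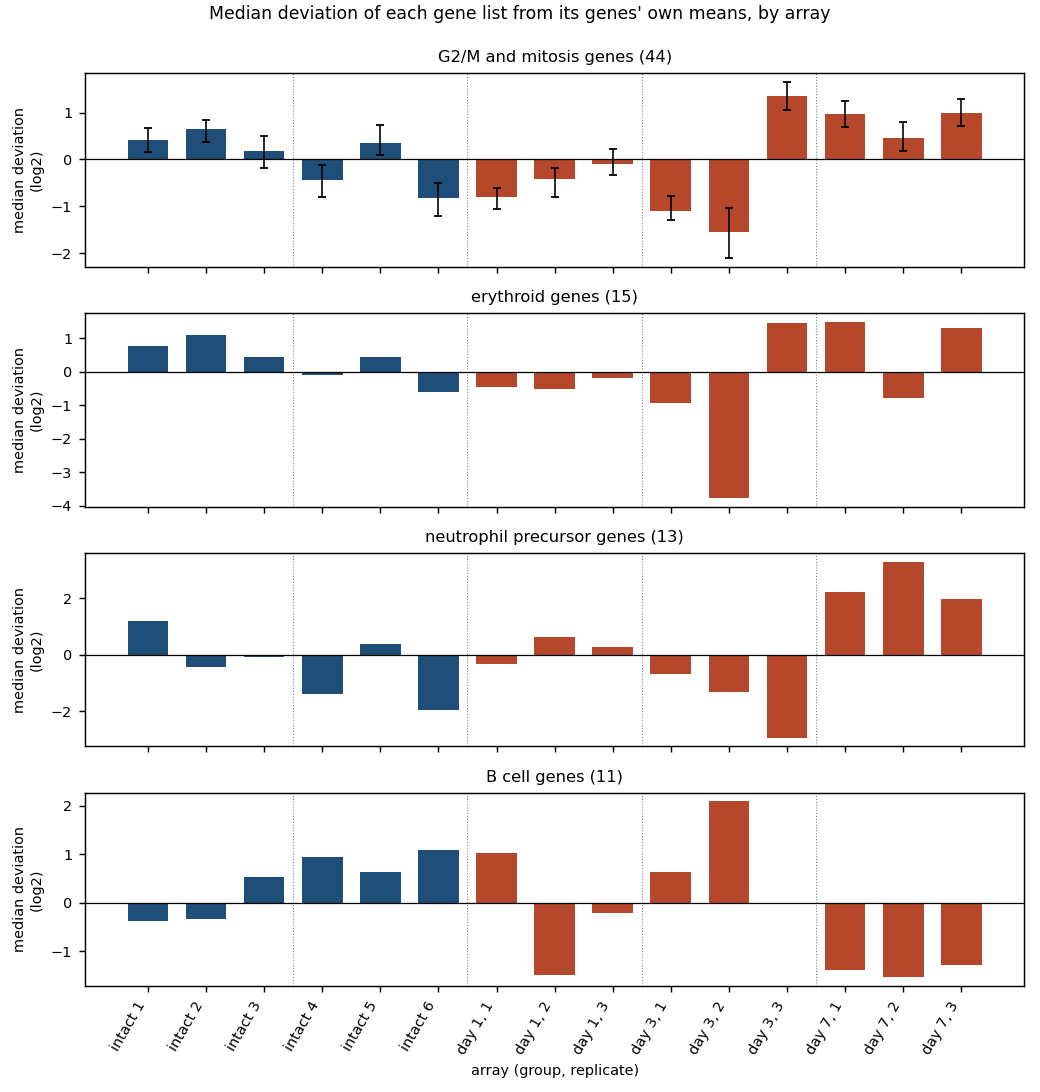
Median deviation on each array (log2, bars) of the 44 G2/M and mitosis genes, with the quartiles over the genes as error bars, and of 15 erythroid, 13 neutrophil precursor and 11 B cell genes; blue marks intact and red resected mice. Day 3 replicate 2 is lowest for both the mitosis and the erythroid genes, at -1.56 and -3.77, and the neutrophil precursor genes are highest on the day 7 arrays, at 2.22, 3.30 and 1.99.

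Neutrophil precursor genes, 13 in all, were high on the 3 day 7 arrays, with median deviations of 2.22, 3.30 and 1.99, and low on day 3 replicate 3, with -2.93, where the mitosis genes were highest. Their mean log2 level was 10.69 to 12.57 in intact spleens 1 to 3, 9.29 to 11.64 in intact spleens 4 to 6, 10.87 to 11.64 on day 1, 8.86 to 11.24 on day 3 and 12.82 to 14.78 on day 7. Elane and Mpo, granule genes of these precursors, were above the array median on every array. Not all of the list was: Gfi1 was above it on 14 arrays and Cebpe on 2. On day 7, 12 of the 13 were higher than in intact spleens 1 to 3, with a median difference of 2.33.

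Lymphocyte and macrophage lists went the other way on day 7 or day 1. All 11 B cell genes and all 12 T cell genes were lower on day 7 than in intact spleens 1 to 3, with medians of -1.36 and -1. The mean log2 level of the B cell list ran from 10.10 to 11.06 in intact spleens 1 to 3, from 11.26 to 11.72 in intact spleens 4 to 6, from 8.79 to 11.39 on day 1, from 10.42 to 12.59 on day 3 and from 9.02 to 9.34 on day 7. Of 11 red pulp macrophage genes, 8 were higher on day 1, with a median of 1.06. Germinal centre genes, which mark dividing B cells, had medians of 0.17 on day 1 and -0.30 on day 7 over 9 genes, and 3 of them, Mef2b, Nuggc and S1pr2, were above the array median on 0, 0 and 1 arrays. The part of any of these cell types in the differences of the mitosis genes was not tested.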

How the data were processed

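The authors hybridised total spleen RNA to Clariom S mouse arrays and, per the labels and the methods, processed them with RMA in the Transcriptome Analysis Console at default settings. The deposited log2 values are therefore background-corrected, normalised across arrays and summarised per feature, and these steps could not be varied. The 6640 control features among 28846 were dropped, which left 22206, and dim features were kept. Symbols came from the platform annotation, and a gene was used where a feature carried that symbol alone.

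Differences were estimated with limma 3.58.1 in R 4.3.3, in 1 fit of 15 arrays in 5 groups (10 residual degrees of freedom), with Benjamini-Hochberg adjustment over all features. SDs were taken within groups, and folds are powers of 2 of log2 differences. The fit of each day against its intact spleens was tested on simulated arrays with known changes, where features varied independently. In the data the mitosis genes moved together. The other comparisons and the promoter reading were not simulated. Intact spleens were divided by replicate number. The mitosis genes and the other lists, as well as the division of the intact spleens, were chosen with earlier results of these data known. Levels on single arrays were given for most of the genes with the smallest p in each comparison with intact spleens and for Mki67, Ccna2 and Ccnb2. Those of Espl1, Ndc80 and Ncapd2, and the day 3 levels of Aurkb, were left out. Levels of Prc1, Racgap1, Top2a and Pttg1 were added after their values were seen. Promoter sequences are from RefSeq (GRCm38.p6). Replicate numbers did not pair the mice. The p values measure only the spread between mice within groups, which the fit pools over the 5 groups, day 3 included.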

Additional observations from a re-analysis of the deposited data

How the results depend on the processing

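The number of arrays and the spread of the day 3 spleens limit what can be called, and with 3 spleens a group 1 array can set a median. The alternatives changed 1 choice at a time, and the cause of each change was not tested unless the setting itself shows it. Against all 6 intact spleens the median log2 difference of the mitosis genes was -0.53 on day 1, 0.78 on day 7 and 1.31 for day 7 against day 3. Against the other set of intact spleens it was -0.18 on day 1 and 1.21 on day 7, with 2 genes called on day 7. On day 3 these settings gave -0.52 and -0.82. An unadjusted p under 0.05 gave 5 genes on day 1 (2.63% of all features were lower at that level) and 1 on day 7 (5.91% higher). Between days 1 and 7 it gave 24 (5.58% higher). Corrected for controls, it gave 1 for day 3 against day 1 and 1 for day 7 against day 3 (2.77% higher in both). A fold of at least 2 with that p gave 5, 1, 22 and 1 genes for the first 4 of these. The share of all features under that rule is not given here, so these 4 counts are not read further. Without the 3 day 3 arrays, chosen after seeing the data, 13 genes were called between days 1 and 7 (0.374% of all features).

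Leaving out 1 array at a time gave medians from -1.09 to -0.75 on day 1, from 0.28 to 0.61 on day 7, from -0.98 to 0.41 on day 3 and from 1.18 to 1.49 between days 1 and 7. Corrected for controls, the median ran from -0.21 to 1.36 for day 3 against day 1 and from -0.048 to 1.51 for day 7 against day 3. Counts of called genes ran from 0 to 1 on day 3 and from 0 to 12 between days 1 and 7, and stayed at 0 for days 1 and 7 against intact spleens and in the comparisons corrected for controls. Against the other set of intact spleens the direction turned for 16 genes on day 1, 7 on day 7 and 15 on day 3, and against all 6 for 4, 5 and 11. Among the genes followed through every setting, those that turned against the other set were Hmmr (0.54), Bub1 (0.13), Mki67 (0.32) and Ccnb2 (0.24) on day 1, Mki67 (0.51) on day 7, and Aurkb (-0.85) and Ccnb2 (-1.26) on day 3. Against all 6 those were Mki67 on day 7 (0.15), and Aurkb (-0.10) and Ccnb2 (-0.61) on day 3. Ccnb2 also turned with a further quantile normalization (-0.15). With 1 array left out, Mki67 ran from -0.34 to 0.014 on day 7, and on day 3 Aurkb ran from -0.11 to 1.17, Ccna2 from -1.61 to 0.68 and Ccnb2 from -1.003 to 0.78.

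The acinar genes as a covariate, the dimmest 25% of features left out, a trended and robust prior, median centring and a fit of the compared groups alone changed no call of a mitosis gene in the comparisons of the days with intact spleens or with each other. With the acinar covariate the median was -0.70 on day 1 and 0.47 on day 7. With the replicate number as a block 0 genes were called on day 1, on day 7 and between them, with medians of -0.94, 0.42 and 1.29, and the smallest adjusted p values were 0.376, 0.242 and 0.0558. Same-numbered spleens did not deviate together, with correlations of their deviations from -0.21 to 0.21, so the block was not used as a pairing. For day 3 no fit with the block was made, since day 3 and intact spleens 4 to 6 share no replicate numbers. The mean of several features of a gene was not run, since each measured gene has 1 feature.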
